A study of Mus musculus with 4 samples.

Results

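The genes described here encode the IL-4 receptor and the proteins that carry its signal in T cells: Il4ra, Il2rg, Jak1, Jak3, Tyk2, Stat6 and Irs2. IL-4 binds the IL-4 receptor α chain, the product of Il4ra, which in lymphocytes pairs with the common γ chain, the product of Il2rg. The α chain carries the kinase JAK1 and the γ chain carries JAK3, while TYK2 serves a second form of the receptor that contains the IL-13 receptor α1 chain. The kinases phosphorylate tyrosines of the α chain, where the transcription factor STAT6 and the adaptor IRS2 dock, and STAT6 then dimerises and binds palindromic sites in DNA.

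Open chromatin was measured by ATAC-seq, which marks DNA that a transposase can reach, and the data were the lists of peaks that the authors called in each library. Naive CD4+ T cells (CD62Lhigh CD44low CD25-) from the spleens of male C57BL/6 wild-type mice, 7 weeks old by the labels, were cultured for 48 h on plate-bound anti-CD3 (5 µg/ml) with soluble anti-CD28 (1 µg/ml), IL-2 (10 ng/ml) and TGF-β1 (5 ng/ml), conditions that drive induced regulatory T cells (iTreg). The 2 iTreg+PBS libraries came from cells cultured without IL-4 and the 2 iTreg+IL-4 libraries from cells cultured with IL-4 at 15 ng/ml; the paper describes them as independent pooled samples. Every library therefore received IL-2, a cytokine that also acts through the common γ chain, JAK1 and JAK3. The comparison asks how open chromatin at the genes of the IL-4 signal looked when IL-4 itself was added. Peaks of the 4 lists that shared at least 1 base were merged into 93679 regions, and a region belonged to a gene where it touched the RefSeq gene record (mm10) or the 20 kb on either side. The 7 genes held 91 of these regions.

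The 4 lists held 56645 to 78670 peaks, and the list of iTreg+PBS replicate 2 was the shortest. That library called 62 of the 91 regions, against 81 in iTreg+PBS replicate 1, 78 in iTreg+IL-4 replicate 1 and 76 in iTreg+IL-4 replicate 2. The read depth is unknown, so that a region missing from a list was only not called there. In these cultures fewer cells with an open site and a less open site in every cell cannot be told apart. Promoters of T cell markers (Cd3e, Cd3d, Cd3g, Cd4, Lck and Cd28) had a peak in all 4 libraries in 6 of 6 cases, and 1 of 2 CD8 T cell markers, 0 of 4 B cell markers, 1 of 4 myeloid markers, 0 of 2 NK cell markers and 0 of 2 erythroid markers did. The B cell marker Ms4a1 and the myeloid marker Itgam had a promoter peak in 3 libraries each. Among those called in all 4, the promoters of Cd8b1 (61.2% to 68.5%) and of the myeloid marker Cd14 (41.2% to 59.8%) ranked above that of Cd4 (12.0% to 34.5%) in every library, on the scale of the percentage of peaks in the list that were weaker. The promoters of the T cell markers Cd3e, Cd3g, Lck and Cd28 (82.2% to 94.4%) ranked above those of Cd8b1 and Cd14 in every library. That of Cd3d (9.96% to 53.7%) ranked below that of Cd8b1 in each. The part of other cells in the results was not tested.

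The gene records lie at chr7:125552271-125579474 (Il4ra), chrX:101264385-101268255 (Il2rg), chr4:101151974-101265282 (Jak1), chr8:71676383-71690577 (Jak3), chr9:21104068-21131393 (Tyk2), chr10:127642955-127660987 (Stat6) and chr8:10984681-11008929 (Irs2). The 250 bases before the RefSeq start of 4 of them are shown, from the promoter richest in CpG dinucleotides to the poorest, since the promoters of these genes differed widely in composition (5′ to 3′ in the direction of transcription, read from RefSeq on GRCm38.p6, CpG in capitals).
Irs2, chr8:11008930-11009179, minus strand: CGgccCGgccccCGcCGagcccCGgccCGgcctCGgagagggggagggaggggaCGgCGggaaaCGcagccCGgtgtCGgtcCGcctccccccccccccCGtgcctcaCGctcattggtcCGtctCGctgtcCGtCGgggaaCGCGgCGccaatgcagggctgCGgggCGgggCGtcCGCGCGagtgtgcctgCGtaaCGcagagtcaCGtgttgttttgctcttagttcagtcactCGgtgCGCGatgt
Il4ra, chr7:125552021-125552270, plus strand: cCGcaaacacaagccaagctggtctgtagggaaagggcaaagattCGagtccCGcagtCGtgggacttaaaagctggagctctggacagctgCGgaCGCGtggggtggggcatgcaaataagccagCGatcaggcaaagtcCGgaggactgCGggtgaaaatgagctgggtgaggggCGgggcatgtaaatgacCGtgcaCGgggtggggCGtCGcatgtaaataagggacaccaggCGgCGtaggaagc
Jak3, chr8:71676133-71676382, plus strand: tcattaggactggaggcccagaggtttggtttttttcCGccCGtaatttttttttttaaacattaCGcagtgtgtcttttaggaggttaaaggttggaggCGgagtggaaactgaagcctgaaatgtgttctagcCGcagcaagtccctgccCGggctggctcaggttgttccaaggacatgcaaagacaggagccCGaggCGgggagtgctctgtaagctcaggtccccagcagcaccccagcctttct
Il2rg, chrX:101268256-101268505, minus strand: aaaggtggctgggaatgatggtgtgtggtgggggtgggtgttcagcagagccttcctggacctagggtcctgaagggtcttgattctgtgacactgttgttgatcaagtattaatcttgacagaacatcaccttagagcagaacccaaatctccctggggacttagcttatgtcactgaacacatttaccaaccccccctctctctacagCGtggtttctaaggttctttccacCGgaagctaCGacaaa
The stretches held 34 CpG at Irs2, 17 at Il4ra, 8 at Jak3 and 3 at Il2rg. In the RefSeq promoter table, which adds the 50 bases after the start and places the starts of Jak1, Tyk2 and Stat6 inside the gene records used for distances here, the GC content was 72% at Irs2, 64.7% at Jak1, 62% at Il4ra, 58% at Tyk2, 57.3% at Stat6, 54.3% at Jak3 and 50.3% at Il2rg, against a median of 52.7% over 32851 promoters. The ETS core CCGGAAG, searched on both strands, was found in the Il2rg promoter and in no other of the 7, and 8.86% of all promoters held it.

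All 7 genes had a peak at the promoter, within 1 kb of a transcript start, in all 4 libraries. The same was true of 59% of 21774 protein-coding genes. Of the 91 regions, 57 (62.6%) were called in all 4 libraries, against 51% of all merged regions. Another 11 were called in 1 library, and 19 in 2 or 3 libraries in combinations that did not follow the condition. The 18 regions at a promoter, 9 at promoters of these genes and 9 at promoters of their neighbours, were all called in all 4 libraries, against 77.6% of all regions at promoters. The other 73 regions were distal, and 39 of them (53.4%) were called in all 4 libraries, against 43.8% of all distal regions.

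**Figure D1:**
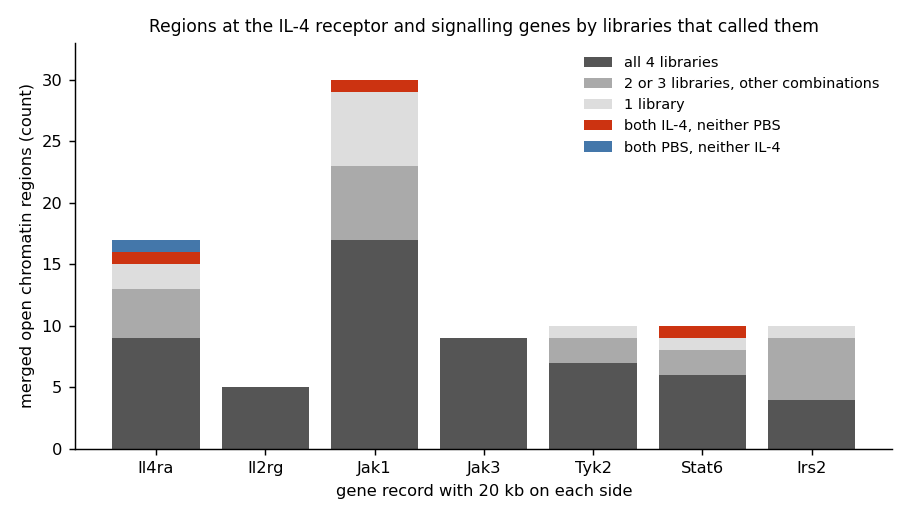
Number of merged open chromatin regions at each gene (y axis), stacked by which of the 4 libraries called them; each bar is 1 gene record with 20 kb on each side. All 9 regions of Jak3 and all 5 of Il2rg were called in every library, while 4 of 10 were at Irs2, and the 4 coloured segments at Il4ra, Jak1 and Stat6 are the regions called in 1 condition alone.

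The genes differed in how much of their open chromatin was shared by the libraries. Jak3, the kinase of the γ chain, had 9 regions and Il2rg had 5, and each of these was called in all 4 libraries. Il4ra had 17 regions with 9 so called, Jak1 30 with 17, Tyk2 10 with 7, Stat6 10 with 6 and Irs2 10 with 4. Per 10 kb of window, the regions called in all 4 libraries numbered 1.66 at Jak3, 1.34 at Il4ra, 1.14 at Il2rg, 1.11 at Jak1, 1.04 at Tyk2, 1.03 at Stat6 and 0.623 at Irs2. The median over protein-coding genes was 0.358, and 70.9% (Irs2) to 98.9% (Jak3) of those genes had a lower density. Regions called in all 4 libraries had a median width of 749 bases and the others of 245.5 bases.

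The promoters of these genes ranked high among the peaks of every library. A rank is given here as the percentage of the peaks in a library's own list with a lower −log10 q, the strength that the peak caller assigned. The Il4ra promoter peak ranked at 87.7% and 85.9% in iTreg+PBS replicates 1 and 2, and at 90.4% and 86.3% in iTreg+IL-4 replicates 1 and 2. Its pileup heights, which are not scaled between libraries, were 363, 164, 390 and 261 in the same order. The groups overlapped in rank, and the lowest height was that of iTreg+PBS replicate 2, as it was at each promoter described here.

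The Il2rg promoter peak ranked at 89.2% and 84.8% without IL-4 and at 90.9% and 88.7% with it. The promoter of Stat6, the factor that the receptor activates, ranked at 87.8% and 83.7% without IL-4 and at 88.1% and 88.0% in the libraries with it. These promoters and that of Il4ra were ordinary among protein-coding promoters with a peak. For Il4ra, 39.1% to 50.4% of such promoters ranked lower over the 4 libraries, for Il2rg 41.1% to 52.3% and for Stat6 38.5% to 44.0%.

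The kinases and the adaptor ranked higher. The Jak1 promoter peak stood at 95.7% and 94.1% without IL-4 and at 96.3% and 94.4% with it. The Tyk2 promoter peak ranked at 96.8% and 94.4% without IL-4 and at 96.4% and 94.6% with it. The Jak3 promoter peak ranked at 95.0% and 91.9% without IL-4 and at 93.7% and 93.5% with it. The promoter of Irs2, which links the receptor to PI3-kinase, ranked at 95.9% and 93.9% without IL-4 and at 94.3% and 95.6% with it. A start of another gene, 9530052E02Rik, also lay within 1 kb of this Irs2 region. Among protein-coding promoters with a peak, 63.5% to 80.4% ranked lower than those of Jak1, Jak3, Tyk2 and Irs2, so that in each library these 4 stood above the promoters of Il4ra, Il2rg and Stat6. In all 4 the ranks of the 2 conditions overlapped.

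**Figure D2:**
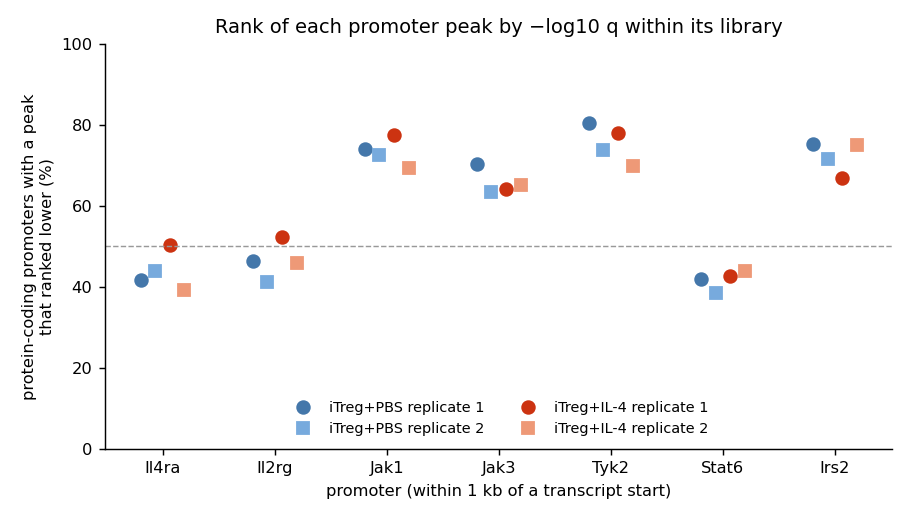
Rank of the promoter peak of each gene within its library (y axis, percentage of protein-coding promoters with a peak that had a lower −log10 q), with 1 point per library. The points of Il4ra, Il2rg and Stat6 lie between 38.5% and 52.3%, those of Jak1, Jak3, Tyk2 and Irs2 between 63.5% and 80.4%, and red and blue points are mixed at most genes.

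Jak1 and Irs2 each had a second region within 1 kb of a transcript start. The second Jak1 region, chr4:101192414-101192858 in intron 2 near the start of a shorter transcript, was weak, with ranks of 15.1% and 1.06% without IL-4 and 22.1% and 17.5% with it. The second Irs2 region, chr8:11007041-11008206 over coding exon 1, ranked at 74.0% and 58.0% without IL-4 and at 72.0% and 70.9% with it. It too lay within 1 kb of a start of 9530052E02Rik. The strong and the weak start of Jak1 were thus far apart in every library, and the conditions were closer to each other at either start.

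At each gene but Il4ra, the best distal region called in all 4 libraries ranked below the promoter of that gene. The strongest of all Il4ra regions in each library was not the promoter but chr7:125588478-125589226, centred 9.38 kb past the end of the gene, toward Il21r, which encodes another receptor chain that pairs with the common γ chain. It ranked at 99.2% and 95.7% without IL-4 and at 99.5% and 97.1% with it. It stood above the Il4ra promoter in all 4 libraries, and the conditions overlapped. At Tyk2 (98.7% to 99.1%) and Stat6 (96.7% to 97.8%) the strongest region in each library was at the promoter of a neighbouring gene. The same held at Il2rg in iTreg+PBS replicate 2. At Irs2 the best distal region lay in intron 1, 15.0 kb from the start, and ranked at 90.4% and 86.3% without IL-4 and at 91.1% and 85.4% with it.

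At the remaining genes the best distal regions had lower ranks than these. The best distal regions of Tyk2, Jak3, Stat6 and Il2rg were centred within other genes, namely Cdc37, B3gnt3, Gm16230 and Med12 in this order. That of Tyk2, 15.5 kb upstream, ranked at 82.6% and 75.9% without IL-4 and at 84.2% and 78.5% with it. That of Jak3, 16.7 kb from its start and beyond its end, ranked at 83.7% and 74.9% without IL-4 and at 82.2% and 76.4% with it. That of Jak1, in intron 11, ranked at 80.9% and 74.7% without IL-4 and at 80.6% and 80.5% with it. That of Stat6, 32.0 kb from its start and beyond its end, ranked at 80.5% and 73.6% without IL-4 and at 79.6% and 82.8% with it. Il2rg, the smallest gene, had distal regions that ranked no higher than 41.5% in any library, and the best by its mean lay 17.5 kb upstream, with 37.5% and 40.6% without IL-4 and 28.0% and 33.3% with it.

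**Figure D3:**
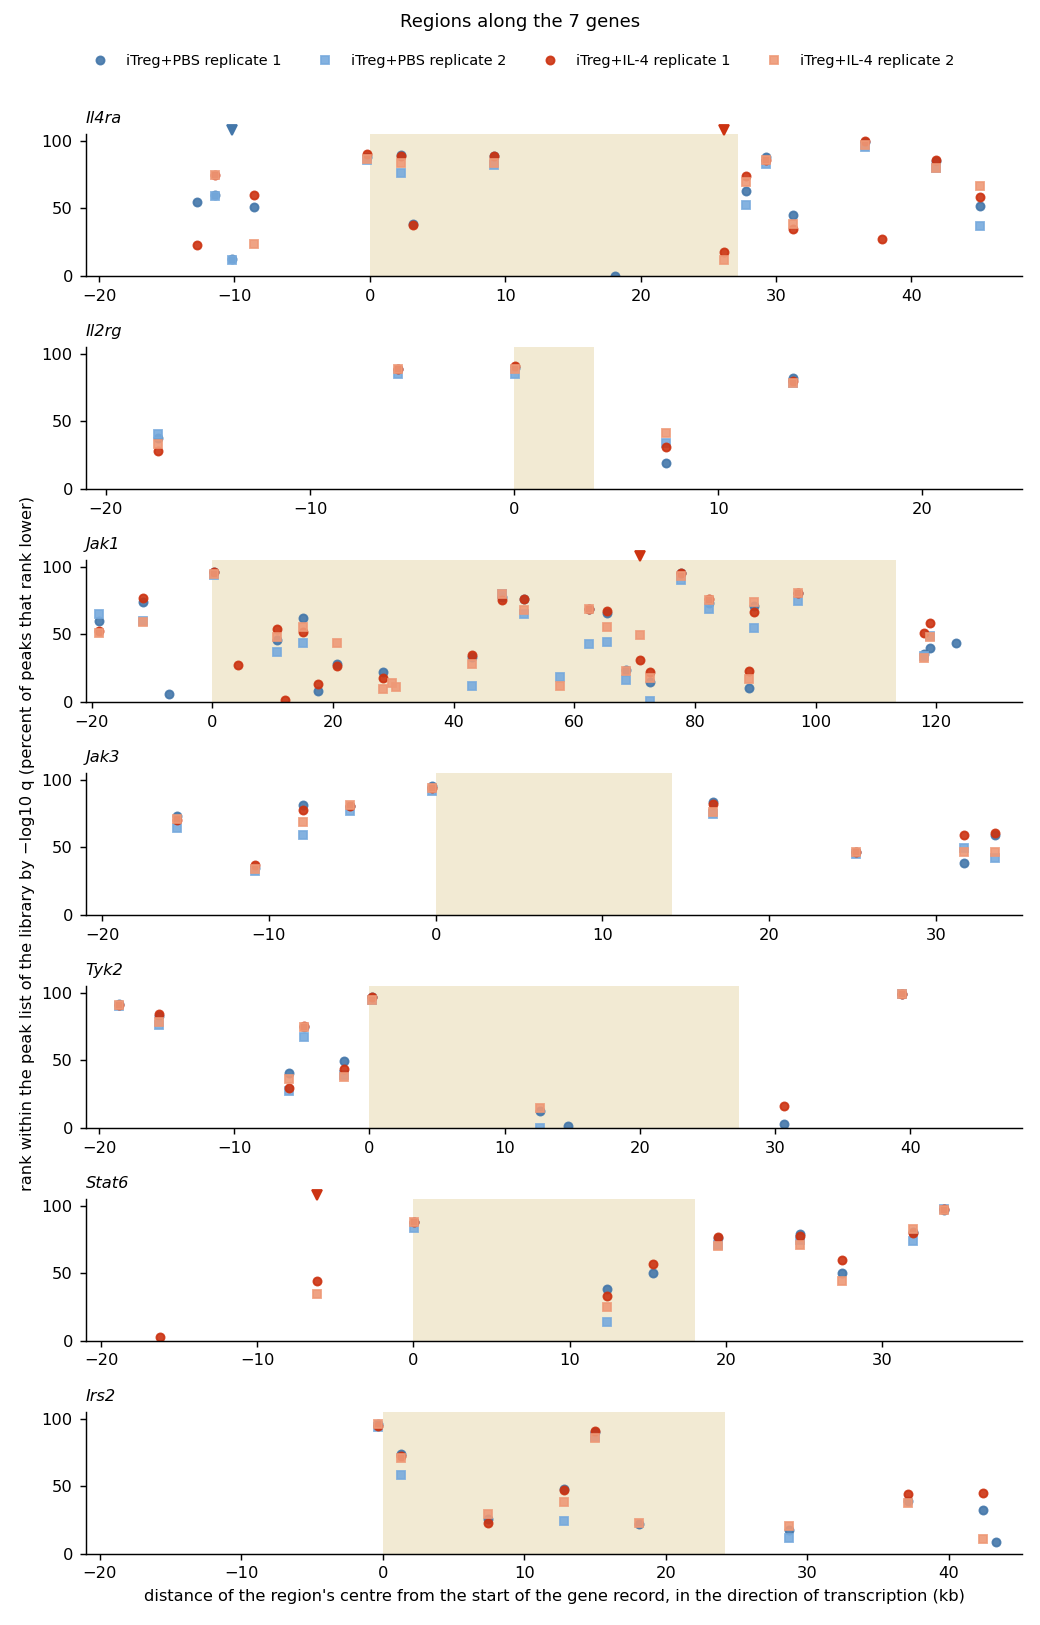
Rank of every region within the peak list of each library (y axis, percentage of peaks with a lower −log10 q) against the distance of its centre from the start of the gene (x axis, kb, in the direction of transcription), with 1 panel per gene and 1 point per library that called it. Shading marks the gene record; triangles mark regions called with IL-4 alone (red) or without it alone (blue), and the strongest Il4ra points lie 36.6 kb from the start, beyond the gene.

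Few regions followed the condition in their calls. One region each at Il4ra, Jak1 and Stat6 was called with IL-4 alone, that is, by the pair of iTreg+IL-4 libraries and by no iTreg+PBS library, which makes 3, and 1 region at Il4ra was called by the pair of iTreg+PBS libraries alone. They made up 3.30% and 1.10% of the 91 regions, against 2.6% and 0.699% of all merged regions, so the shares at these genes were near those of the genome. None of the 4 was at a promoter. Those that lie outside exons are shown as the plus strand of GRCm38, whole for Jak1 and Stat6 and as the central 200 bases for Il4ra.
Jak1 intron 1, with IL-4 alone, chr4:101194249-101194480: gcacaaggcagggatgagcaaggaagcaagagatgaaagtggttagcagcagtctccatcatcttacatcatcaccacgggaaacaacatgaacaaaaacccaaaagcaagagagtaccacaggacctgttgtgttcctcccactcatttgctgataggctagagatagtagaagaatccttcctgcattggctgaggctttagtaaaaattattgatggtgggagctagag
Stat6 upstream, with IL-4 alone, chr10:127636661-127636900: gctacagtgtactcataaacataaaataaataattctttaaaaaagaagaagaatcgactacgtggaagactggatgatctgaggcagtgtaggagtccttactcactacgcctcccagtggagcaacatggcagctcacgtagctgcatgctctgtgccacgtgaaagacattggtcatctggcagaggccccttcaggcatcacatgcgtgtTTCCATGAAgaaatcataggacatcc
Il4ra upstream, without IL-4 alone, chr7:125541996-125542195: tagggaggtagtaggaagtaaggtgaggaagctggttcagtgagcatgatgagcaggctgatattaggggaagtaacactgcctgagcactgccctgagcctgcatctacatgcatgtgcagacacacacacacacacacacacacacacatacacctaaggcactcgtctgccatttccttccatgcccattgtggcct
Capitals mark a palindrome to which STAT factors other than STAT6 can bind (TTCNNNGAA), found near the edge of the Stat6 region. The Il4ra stretch holds a run of alternating C and A.

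The Jak1 region ranked at 31.3% and 49.6% in iTreg+IL-4 replicates 1 and 2, with pileup heights of 42 and 51. The Stat6 region, 6.18 kb upstream of the gene and within the uncharacterised gene Gm40802, ranked at 44.4% and 34.4%, with heights of 35 and 25. The Il4ra region called with IL-4 alone, chr7:125578196-125578690 in the 3′ UTR in exon 11, ranked at 17.5% and 12.0% by −log10 q but at 71.9% and 68.4% by height, with heights of 109 and 80. The Il4ra region called without IL-4 alone, 10.2 kb upstream at chr7:125541929-125542262, ranked at 12.3% and 11.6% in iTreg+PBS replicates 1 and 2, with heights of 32 and 17. By −log10 q none of the 4 ranked above 49.6% in a list that called it.

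With 2 libraries a group an exact permutation test cannot go below p = 0.33, so no test was made of single calls. The Jak1 and Stat6 regions were still called with IL-4 alone when each list was shortened to its 56645 strongest peaks, and the Il4ra regions were not. Leaving out a library changed the counts: the regions called with IL-4 alone numbered 12 without iTreg+PBS replicate 1, 5 without iTreg+IL-4 replicate 1 and 7 without iTreg+IL-4 replicate 2, and those called without IL-4 alone numbered 6 without iTreg+PBS replicate 2 and 4 without iTreg+IL-4 replicate 2. Fewer libraries then have to call or miss a region.

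Strength was compared between conditions over the regions called in all 4 libraries. A list that is shorter gives its shared peaks a lower rank, so each region was ranked again among only the 47767 regions called in every library (100% is the strongest). On this shared rank the differences, iTreg+IL-4 mean minus iTreg+PBS mean, ran from −17.8 to 16.5 points over the 57 regions, with a median of 0.0743 points, against −0.0230 points over all regions. In 7 of the 57 (12.3%) both iTreg+IL-4 ranks were above both iTreg+PBS ranks, and in 5 (8.77%) both were below. Over all shared regions these shares were 14.4% and 12.7%. Ranked by height in place of −log10 q, 11 of the 57 (19.3%) were higher and 7 (12.3%) lower with IL-4, against 13.7% and 12% of all shared regions. limma, run on normal scores of these ranks over all 47767 regions with Benjamini-Hochberg adjustment, called 0% of them and 0 of the 57. At an unadjusted p under 0.05 it gave 1 of the 57, with 3.75% of all shared regions.

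**Figure D4:**
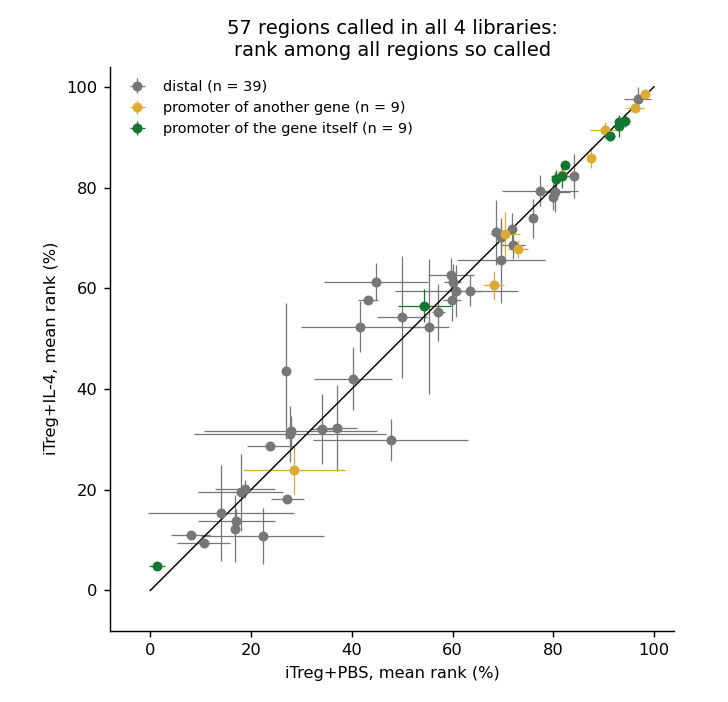
Mean shared rank with IL-4 (y axis, %) against the mean without IL-4 (x axis, %) for the 57 regions called in all 4 libraries; error bars are the SD of 2 libraries and the line marks equal ranks. Promoters of the 7 genes lie near the line, and the regions farthest from it, whose means differed by 14.4 to 17.8 points, are distal.

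The promoters differed little between conditions on this scale. The Il4ra promoter had shared ranks of 80.2% and 83.3% without IL-4 and 84.2% and 80.6% with it, and the Stat6 promoter 80.4% and 80.7% without and 80.5% and 83.0% with it. The Il2rg promoter had 82.6% and 82.0% without IL-4 and 85.0% and 83.9% with it, which puts both iTreg+IL-4 libraries higher. By −log10 q the weak second start of Jak1 was the other promoter whose groups did not overlap, at 2.48% and 0.263% without IL-4 and 4.47% and 5.22% with it. By height the Stat6 promoter also had groups that did not overlap, at 83.8% and 83.8% without IL-4 and 84.0% and 85.9% in the libraries with it. None of these promoters passed limma (adjusted p = 1.00 for each).

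At Il4ra the 3 regions that stood higher with IL-4 by −log10 q were distal ones of middling shared rank on either side of the gene. The region 11.4 kb upstream had shared ranks of 37.5% and 52.1% without IL-4 and 58.8% and 63.9% with it. The region 0.543 kb past the end of the gene had 41.9% and 44.6% without IL-4 and 57.9% and 57.4% with it. The region 17.8 kb past the end had 27.1% and 27.0% without IL-4 and 34.0% and 53.1% with it. In each of these both iTreg+IL-4 libraries lay above both iTreg+PBS libraries, by −log10 q and by height, and the means by −log10 q differed by 16.5, 14.4 and 16.5 points. By height 1 more region stood higher, 2.05 kb past the end of the gene, with 87.5% and 86.0% without IL-4 and 89.6% and 89.5% with it, while by −log10 q its groups overlapped. The central 95% of differences over all shared regions ran from −15.3 to 15.7 points. In normal scores the difference at the region just past the end was the largest against its error, 0.36 with SE 0.13 (unadjusted p = 0.044 by limma), but its adjusted p was 1.00, and for the other 2 the differences were 0.42 with SE 0.19 upstream and 0.45 with SE 0.21 downstream. The central 200 bases of each are shown (plus strand, GRCm38).
11.4 kb upstream, chr7:125540761-125540960: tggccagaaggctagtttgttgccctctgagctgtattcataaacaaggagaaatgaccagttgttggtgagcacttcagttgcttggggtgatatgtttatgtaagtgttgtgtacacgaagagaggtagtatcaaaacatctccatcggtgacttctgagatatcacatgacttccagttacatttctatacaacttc
0.543 kb past the end, chr7:125579918-125580117: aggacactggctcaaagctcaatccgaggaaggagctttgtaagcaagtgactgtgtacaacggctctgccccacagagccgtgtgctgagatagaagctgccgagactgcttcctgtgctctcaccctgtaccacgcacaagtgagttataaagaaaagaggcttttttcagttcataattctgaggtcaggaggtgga
17.8 kb past the end, chr7:125597213-125597412: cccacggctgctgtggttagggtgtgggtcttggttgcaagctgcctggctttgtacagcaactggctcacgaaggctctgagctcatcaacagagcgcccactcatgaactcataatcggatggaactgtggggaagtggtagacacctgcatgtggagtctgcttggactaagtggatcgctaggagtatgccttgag

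**Figure D5:**
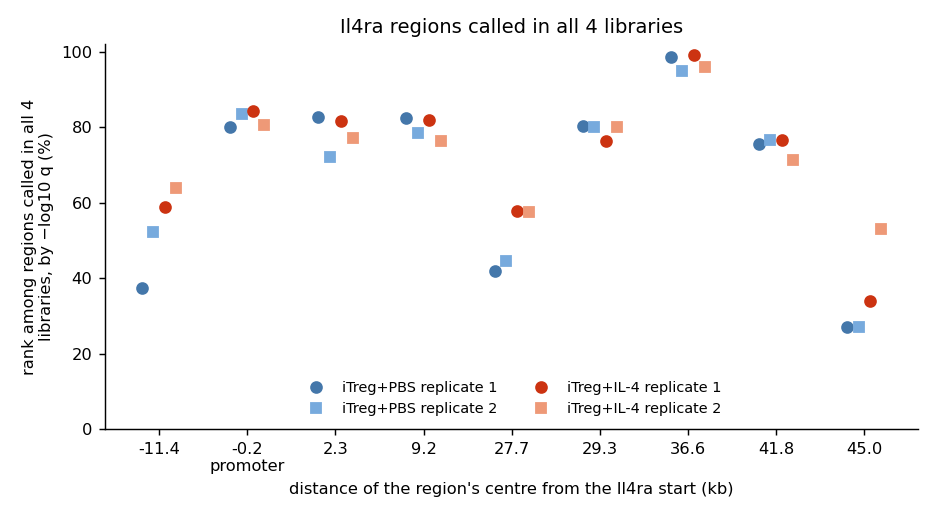
Shared rank (y axis, % of the regions called in all 4 libraries that were weaker) of the 9 Il4ra regions called in every library, ordered by the distance of their centre from the start (x axis, kb), with 1 point per library. At −11.4, 27.7 and 45.0 kb both red points lie above both blue points, while the promoter, the intronic regions and the strongest region at 36.6 kb show mixed colours.

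The other genes gave few regions that separated by −log10 q, with differences of both signs. The distal region 18.8 kb upstream of Jak1 had shared ranks of 36.8% and 58.6% without IL-4 and 26.9% and 32.8% with it, a mean difference of −17.8 points, the lowest among the 57. A Jak1 region in intron 1, 10.7 kb from the start, was higher with IL-4, with 20.5% and 27.1% without IL-4 and 28.4% and 29.0% with it. The Tyk2 region 1.89 kb upstream had 24.8% and 29.5% without IL-4 and 17.9% and 18.5% with it. The Stat6 region 19.5 kb from the start, past the gene, had 61.8% and 65.1% without IL-4 and 61.7% and 57.3% with it. The remaining 3 lay at promoters of neighbouring genes, those of Foxo4 beside Il2rg and of Nab2 beside Stat6, which were lower with IL-4, and that of Raver1 beside Tyk2, which was higher. None of these was called by limma. At Jak3 and Irs2 no region had groups that did not overlap by −log10 q, and by height 1 did, the Jak3 region 10.9 kb upstream, at 44.0% and 47.2% without IL-4 and 39.9% and 41.2% with it. Also by height alone, the Jak1 region in intron 1 at 43.0 kb from the start had 18.8% and 12.9% without IL-4 and 20.1% and 24.1% with it, and that at 51.7 kb had 62.2% and 62.9% without and 61.8% and 61.0% with it. The Tyk2 region 4.82 kb upstream had 77.9% and 78.0% without IL-4 and 78.0% and 79.5% in the libraries with it.

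The bases covered by peaks were also counted. Over the 7 windows they numbered 51315 and 39604 in the iTreg+PBS libraries (mean 45460 ± 8281, SD, n = 2) and 51527 and 47056 in the iTreg+IL-4 libraries (mean 49292 ± 3161, SD, n = 2). iTreg+PBS replicate 1 lay between the libraries with IL-4 and replicate 2 below both. The ratio of the means was 1.08, against 1.12 over the genome. The mean difference of 3832 bases was smaller than the SD of the iTreg+PBS libraries and turned to −2023.5 bases without iTreg+PBS replicate 2; without iTreg+PBS replicate 1 it was 9687.5 bases. At Il4ra the covered stretch was 7652 and 5032 bases in the iTreg+PBS libraries and 8067 and 6420 bases in the iTreg+IL-4 libraries. At Irs2 it was 5010 and 3446 bases against 4165 and 4133, and the groups overlapped at either gene. Il2rg was the one gene whose groups did not overlap, with 4138 and 3825 bases without IL-4 against 4282 and 4468, and this was not tested.

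STAT6 binds palindromes with 4 free bases between the arms, and the letters TTCNNNNGAA, which read the same on both strands, were searched in the regions. In the central 200 bases 1 of the 91 regions held them, against 5.84% of all merged regions. It was the Jak1 region in intron 5, chr4:101182587-101183226, whose central 200 bases are shown with the site, chr4:101182964-101182973, in capitals (plus strand, GRCm38).
Jak1 intron 5, chr4:101182807-101183006: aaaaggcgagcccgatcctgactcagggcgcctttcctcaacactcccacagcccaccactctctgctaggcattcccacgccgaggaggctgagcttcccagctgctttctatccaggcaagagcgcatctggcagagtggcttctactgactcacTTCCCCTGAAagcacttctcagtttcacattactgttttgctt
It had shared ranks of 56.4% and 63.0% without IL-4 and 60.3% and 65.0% with it, and these overlapped. By height its shared ranks did not overlap, at 71.3% and 73.3% without IL-4 and 75.2% and 76.5% with it. The form with 3 free bases, TTCNNNGAA, to which other STAT factors bind, was in the central 200 bases of 10 of the 91 regions, against 8.47% of all merged regions, and 4 of the 10 were at Il4ra.

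Over whole regions, 17 of the 91 (18.7%) held 19 sites, against 13.6% of all merged regions. Of the 57 called in all 4 libraries, 14 (24.6%) held a site, against 17.3% of all regions so called. The 17 regions were 5 of Il4ra, 4 of Irs2, 3 of Jak1, 2 each of Tyk2 and Stat6, 1 of Jak3 and 0 of Il2rg. The promoter regions of 4 of the genes held 1 each, shown with the arms in capitals and named by the distance in bases from the centre of the region.
Il4ra promoter region, −221, chr7:125551868-125551877: TTCatctGAA
Jak3 promoter region, −113, chr8:71676069-71676078: TTCagagGAA
Irs2 promoter region, 354, chr8:11009608-11009617: TTCccggGAA
Stat6 promoter region, 599, chr10:127643573-127643582: TTCcctaGAA
The strong distal region beyond Il4ra also held one, at chr7:125588515-125588524 (TTCagatGAA). None of the 3 regions called with IL-4 alone held a site, against 20.1% of all regions so called, and the 1 called without IL-4 alone held none either, against 5.51%. No site was found in the 7 regions whose shared ranks by −log10 q were higher with IL-4. Of the 5 whose ranks were lower with IL-4, 1 held a site, the region 18.8 kb upstream of Jak1. The ranking by height gave another count, with a site in 4 of the 11 higher regions and in 1 of the 7 lower ones. Among the 57 regions called in all 4 libraries, the median rank difference was 0.343 points over the 14 with a site and −0.0597 points over the 43 without one. Regions with a site were wider, with a median of 889 bases against 688, and a match of letters does not show that the factor was bound.

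The other genes of the pathway were counted in the same way. Of 18 genes for further receptor chains, kinases, adaptors, phosphatases, inhibitors and STAT factors, 16 (88.9%) had a promoter peak in all 4 libraries, against 59% of protein-coding genes. The exceptions, named after their values were seen, were the IL-13 receptor chains: Il13ra1 had a promoter peak in 2 libraries, at ranks of 11.3% in iTreg+PBS replicate 1 and 0.216% in iTreg+IL-4 replicate 2, and Il13ra2 had none. Within 20 kb of these 18 genes lay 200 regions. All 4 libraries called 124 (62%) of them, and 6 (3%) were called with IL-4 alone and 2 (1%) without IL-4 alone. Over all merged regions these shares were 51%, 2.6% and 0.699%.

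Those called with IL-4 alone were 3 at Pik3r1, which encodes a regulatory subunit of PI3-kinase, 1 at Ptpn11, which encodes the phosphatase SHP2, and 2 in the window shared by Stat5a and Stat5b, the neighbouring genes for the STAT factors of IL-2 signalling. One of the latter, chr11:100859015-100859378, was centred 0.155 kb upstream of the Stat5a start and 0.192 kb upstream of the Stat5b start. It ranked at 45.5% and 49.6% in the iTreg+IL-4 libraries. The other ranked at 41.1% and 6.71%. Both genes also had a stronger promoter peak in all 4 libraries, at ranks of 92.6% to 97.1% for Stat5a and 82.3% to 97.1% for Stat5b. A peak within 1 kb of a start of each gene counts for both, and the ranks were the same in every library but iTreg+PBS replicate 1. The 3 Pik3r1 regions ranked between 8.28% and 44.9%. Those called without IL-4 alone lay at Ptpn11 and at Grb2, which encodes an adaptor, and ranked no higher than 9.79% in either iTreg+PBS library.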

How the data were processed

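ATAC-seq libraries, 2 per condition (iTreg+PBS, iTreg+IL-4), were grouped by their labels. The authors sequenced on the BGISEQ-500, mapped to mm10 with Bowtie2 2.2.5, kept mapped pairs and called peaks per library with MACS2 2.1.2; bedtools 2.16.2 is listed in the submitters' processing notes. A correction for the transposase offset and removal of duplicate or mitochondrial reads are not given in the sources used here, and their effect on positions and ranks was not tested. The 2 values deposited with each peak have no header and were read as the −log10 q-value and the pileup signal height; neither was scaled between libraries by the authors, so only ranks were compared. Depth is unknown. The deposited peak positions were read as counting from 0 and are printed from 1; 0 peaks ran past the ends of the 21 chromosomes of the RefSeq GRCm38 reference.

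Peaks that shared at least 1 base were merged (Python 3.11.15, pandas 2.3.3, numpy 2.4.6, scipy 1.17.1, pysam 0.24.0). In regions with several peaks of a library the strongest counted. Ranks were tested with limma 3.58.1 in R 4.3.3 on normal scores, over all regions called in every library, without covariates; the merging and the fit were tested on simulated data. The genes, gene lists and rules were chosen with earlier results of these data known. Described singly were every promoter region of the 7 genes, every region called in 1 condition alone, every region with a STAT6-type site in its central 200 bases and the best distal region per gene; regions whose ranks did not overlap between conditions, and sites over whole regions, were added after their values were seen. Alternatives were shorter lists, other windows, overlaps, promoter widths and motif windows, rank by height or within the list, a replicate block, and leaving out each library.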

Additional observations from a re-analysis of the deposited data

How the results depend on the processing

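With 2 libraries a condition and no reads, the precision rests on the calls of 4 lists, and a call missed at low depth cannot be told from a closed site. Of 58 alternative values 45 stayed within 1.5 times the count, or within 1 SD for the covered bases, and 13 did not. Regions called in all 4 libraries numbered 25 in the gene records alone, a smaller window, and 78 with 50 kb on each side. They numbered 54 with lists of equal length, 38 with the upper 50% of each list and 43 with a reciprocal overlap of 50%. When a library was left out, 57 to 66 were called in every library kept, which asks for fewer calls. With the upper 50% of each list, 0 regions were called with IL-4 alone and 0 without it alone; without IL-4 alone, 0 were also called with lists of equal length and in the gene records alone. Leaving out a library gave 3 to 12 regions with IL-4 alone and 1 to 6 without it alone. Covered bases then differed by −2023.5 to 9687.5. Regions with a STAT6-type site numbered 3 with 50 kb on each side, 14 in 500 bases and 17 in whole regions. The 14 were 15.4% of the 91 regions, against 13.0% of all merged regions. Only in the central 200 bases was the share at these genes below that of all regions. The 7 promoters were called in all 4 libraries with both shorter sets of lists and both other promoter widths; leaving out a library could not lower this count. limma called 0 regions of the 7 genes in each fit, the replicate block included, where 4 of the 57 had an unadjusted p under 0.05 and 7.73% of all shared regions did. Same-numbered libraries deviated together (correlation 0.393), but with 2 numbers a pairing cannot be established.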
